A study of Homo sapiens with 8 samples.

Results

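Bidirectional protein-coding promoters were examined in the H3K4me3 landscape of IFNγ-treated U2OS cells, a human osteosarcoma cell line. A bidirectional promoter was defined here as a head-to-head pair of protein-coding genes on chromosomes 1 to 22 whose MANE Select 5′ ends (the reference transcript of each gene in GENCODE 44) lie at most 1000 bp apart, with the minus-strand gene on the left. The annotation held 866 such pairs at 861 distinct loci, since 5 pairs shared both 5′ ends with another pair, and each locus was counted once. They comprised 1727 of the 18191 MANE Select protein-coding genes, or 9.49%. Of the others, 14866 were single promoters with no second protein-coding 5′ end within 6000 bp, and 1598 belonged to neither class. Pairs are written with the minus-strand gene first.

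Genes in head-to-head pairs share the DNA between their start sites, and transcription runs outwards from it in both directions. Such promoters are typically CpG islands without a TATA box and often serve housekeeping genes of DNA repair, mitochondria and RNA processing. H3K4me3 marks the nucleosomes that flank active start sites, and at a single promoter it extends mainly into the transcribed gene.

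The libraries came from 3 wild-type (WT) clones and 3 clones in which ZBTB48, a telomere-binding zinc finger protein and transcriptional activator, was knocked out (KO). All 6 received IFNγ at 250 U/ml for 24 h, so no untreated state was compared. The clones derive from the same line, and the comparison asks whether the H3K4me3 promoter landscape differs without ZBTB48. The data were 1 list of broad peaks per library, and 2 WT input libraries had no list and were not analysed here.

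The lists were of 2 kinds, and the kind was partly confounded with genotype, since 1 kind held WT libraries only. Peaks of WT replicates 1 and 2 had medians of 13.6 and 14.1 in fold enrichment and of 2310 and 2365 bp in width. Those of WT replicate 3 and the KO libraries had medians of 4.18 to 4.63 and of 1271 to 1483 bp. The lists held 21025 to 25545 peaks, and read depth was not given by them. Because of these kinds, called wide and narrow below, WT replicate 3 is set beside the KO libraries at each genotype comparison. Of the U2OS markers, RUNX2, COL1A1, SPARC and VIM carried a peak in all 6 lists, while COL1A2, ALPL, SP7 and BGLAP carried none. Of the markers of other cells, PTPRC, CD3E, CDH1 and ALB carried none and the epithelial EPCAM carried one in all 6. The ZBTB48 promoter itself kept its peak in all 6 lists, and a promoter mark does not check the knockout.

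The DNA between the 5′ ends is the shared element, and 9 examples are printed from GRCh38, chosen for the shortest gap, for the pairs with long WT marks described below, for pairs of known function, and, with MST1/RNF123, for a pair called in all WT and no KO libraries. Capitals mark the letters of motifs that were searched on both strands.
CIR1/SCRN3 (chr2:174395713-174395729, plus strand): aagggggaacttccgag
PARP9/DTX3L (chr3:122564301-122564337, plus strand): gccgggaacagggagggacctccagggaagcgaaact
COG5/DUS4L (chr7:107563921-107563970, plus strand): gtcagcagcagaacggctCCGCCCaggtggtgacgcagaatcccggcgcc
MAN2B1/WDR83 (chr19:12666743-12666806, plus strand): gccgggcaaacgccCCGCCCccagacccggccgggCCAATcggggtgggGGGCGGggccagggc
MST1/RNF123 (chr3:49689475-49689556, plus strand): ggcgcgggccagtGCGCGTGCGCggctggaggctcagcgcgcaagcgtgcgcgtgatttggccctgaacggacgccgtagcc
COL4A1/COL4A2 (chr13:110307158-110307283, plus strand): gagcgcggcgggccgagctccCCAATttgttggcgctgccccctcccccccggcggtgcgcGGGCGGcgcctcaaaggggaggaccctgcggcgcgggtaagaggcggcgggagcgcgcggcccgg
ZAR1L/BRCA2 (chr13:32315364-32315507, plus strand): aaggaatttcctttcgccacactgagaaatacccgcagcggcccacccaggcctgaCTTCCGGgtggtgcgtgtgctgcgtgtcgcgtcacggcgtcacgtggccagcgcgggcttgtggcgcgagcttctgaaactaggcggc
XPO5/POLH (chr6:43576039-43576184, plus strand): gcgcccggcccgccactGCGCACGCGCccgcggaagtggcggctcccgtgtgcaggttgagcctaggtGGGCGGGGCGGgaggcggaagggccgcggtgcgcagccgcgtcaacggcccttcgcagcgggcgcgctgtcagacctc
POLE/PXMP2 (chr12:132687343-132687586, plus strand): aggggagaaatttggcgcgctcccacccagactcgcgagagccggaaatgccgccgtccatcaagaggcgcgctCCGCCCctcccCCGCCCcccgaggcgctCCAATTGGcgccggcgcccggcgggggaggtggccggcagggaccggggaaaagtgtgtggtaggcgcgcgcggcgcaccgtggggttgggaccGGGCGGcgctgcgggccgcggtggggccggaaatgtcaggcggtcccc
The capitals in MST1/RNF123 are an NRF1 match, as is the first run of XPO5/POLH. GGGCGG and its reverse complement CCGCCC are the SP/KLF letters, CCAAT and its reverse complement ATTGG the CCAAT box, and CTTCCGG in ZAR1L/BRCA2 the ETS letters on the minus strand. In POLE/PXMP2 a CCAAT and an ATTGG overlap, and in XPO5/POLH a pair of GGGCGG runs overlap. CIR1/SCRN3 and PARP9/DTX3L held none of the motifs in their 17 and 37 bases.

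The letters were then counted in the 300 bases from 250 upstream to 50 downstream of every 5′ end. ETS letters (CCGGAAG) stood at 32.02% of pair genes, against 12.2% of single genes and 14.2% of all genes. NRF1 letters (GCGC, any base, TGCGC) stood at 15.4%, against 7.79% of singles and 8.60% of all, and YY1 letters (AAGATGGCG) at 6.43%, against 2.49% and 2.94%. The other GC-rich or housekeeping motifs were closer. SP/KLF letters (GGGCGG) stood at 74.0% of pair genes and 62.6% of all, CCAAT at 41.8% and 35.7%, and the palindromic CRE letters (TGACGTCA) at 4.57% and 2.78%. TATAAA was rarer in pairs, at 3.76% against 9.55% of all genes. The IRF letters (GAAA, any 2 bases, GAAA) stood at 2.14% of pair genes and 3.25% of all, and the telomere repeat TTAGGG, which ZBTB48 binds, at 9.15% and 8.52%. Single genes with a divergent annotated gene of any type lay near the pairs in TATAAA (4.49%) and SP/KLF letters (76.7%). They lay between pairs and all genes in ETS (19.98%), NRF1 (12.8%) and YY1 letters (3.23%). These shares are descriptions, with no test, and the windows of the genes of a pair often hold the same bases.

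Pairs were CpG islands more often than single promoters. Within 500 bp of the midpoint, 803 of 861 pairs (93.3%) had a CpG observed-to-expected ratio of at least 0.6 and a GC content of at least 50%. Within 500 bp of the 5′ end, 91.1% of the 1727 pair genes did so, against 64.5% of single promoters. The median ratio was 0.79 in pairs and 0.73 in singles. Single promoters with an annotated gene of any type (such as a long non-coding RNA) running the other way within 1000 bp were close to the pairs. Of them 90.0% were CpG-rich, with a median ratio of 0.81. The type of that gene was not filtered, so a protein-coding gene with another annotated 5′ end could be among them.

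Nearly every bidirectional promoter carried H3K4me3 in these cells. A pair was called in a list when a peak lay within 1000 bp beyond either 5′ end, and a single promoter when a peak lay within 1000 bp of its 5′ end. Of the 861 pairs, 831 (96.5%) were called in all 6 lists, where the share over all 18191 promoters was 66.6%. Another 23 pairs (2.67%) were called in no list, where the share over all promoters was 28.9%, and 7 pairs were called in 1 to 5 lists. The pairs called were 97.2%, 96.9% and 97.1% in the WT libraries and 97.0%, 96.6% and 96.7% in the KO libraries. Single promoters were called at 66.0%, 65.8% and 66.2% in WT and 66.5%, 65.1% and 65.1% in KO. The difference of 31.2 percentage points (SD 0.41, n = 6 libraries) had the same direction in 6 of 6 (exact two-sided sign permutation test over libraries, p = 0.031, the smallest that 64 patterns allow, and 0.042 adjusted over 4 class tests). All libraries read the same promoters, so these p-values speak of the libraries alone.

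CpG content moved with this difference. Among CpG-rich promoters the pairs were called at 97.9 to 98.3% and the singles at 88.5 to 89.6%, a difference of 8.97 points. The single promoters with a divergent annotated gene were called at 88.6 to 89.4%, and lone singles with no opposite 5′ end of any type within 3000 bp at 58.7 to 60.2%. With peaks of a fold enrichment of at least 4 alone the difference was 12.8 points and missed the threshold (exact sign permutation, adjusted p = 0.21). This cutoff does not act alike on the 2 kinds of list. It lies near the median fold enrichment of the narrow lists (4.18 to 4.63) and far below that of the wide lists (13.6 and 14.1).

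**Figure D1:**
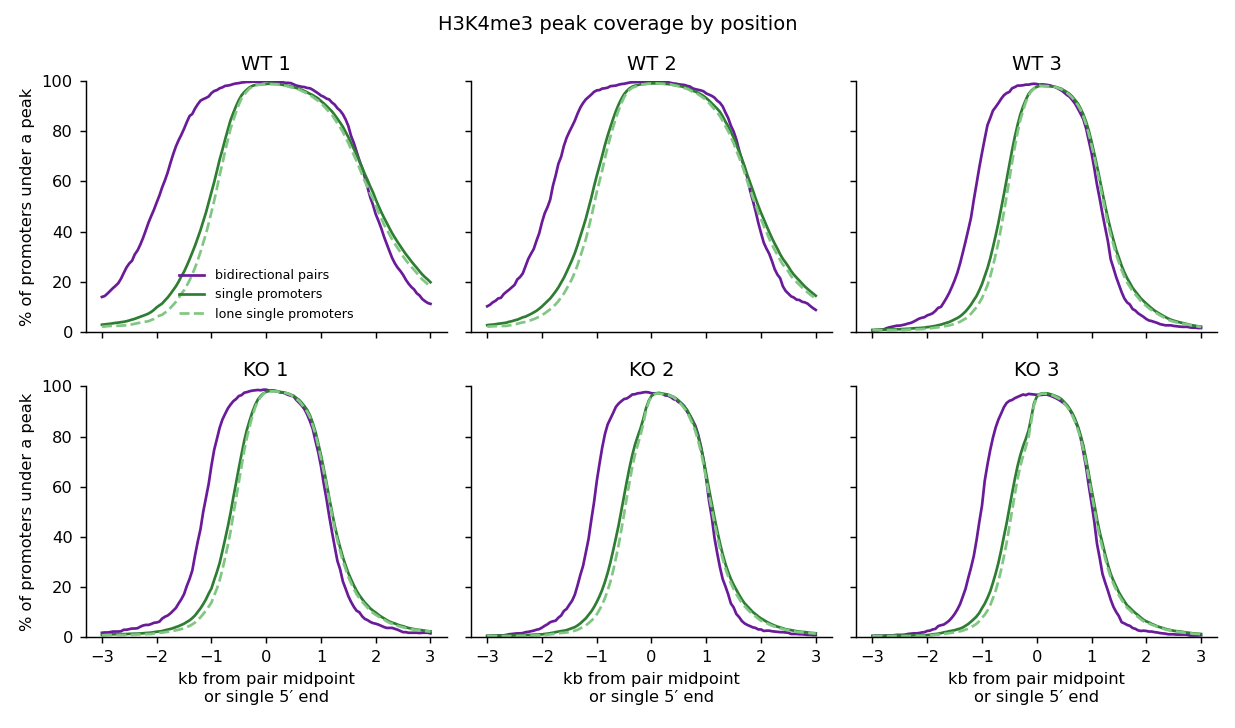
Share of promoters under an H3K4me3 peak (percent, vertical axis) by distance in kb (horizontal axis) from the midpoint of a pair or from a single 5′ end, with transcription of the single gene to the right, in each library, for units called in all 6 lists. The pair curve is as wide on the left as on the right, while the curves of single and lone single promoters lie to the right of the 5′ end.

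The mark lay evenly about a pair and one-sided at a single promoter. In WT replicate 3, 71.4% of pairs were under a peak 1000 bp left of the midpoint and likewise 71.4% of pairs 1000 bp right of it. In the same library 19.1% of single promoters were covered 1000 bp upstream and 75.9% 1000 bp downstream. KO replicate 3 had the lowest values, with 52.5% and 53.5% of pairs and 11.6% and 59.0% of singles. In the wide list of WT replicate 1 the pairs stood at 95.2% and 94.2% and the singles at 55.7% and 92.0%. The second flank of a pair is itself the body of a gene, so more cover there follows from how the classes were built.

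Over a window of 6 kb the pairs were covered for 4058, 3888 and 2446 bp in the WT libraries and 2392, 2223 and 2082 bp in the KO libraries (means of 831 pairs). Single promoters were covered for 3251, 3239 and 2053 bp in WT and 2018, 1810 and 1709 bp in KO (means of 9451). Pairs were longer in 6 of 6 libraries, by 502 bp (SD 183, exact sign permutation p = 0.031, adjusted 0.042). The window of a pair holds a second gene body, so this direction followed in part from how the classes were built. Pairs, unlike singles, could also have a further protein-coding 5′ end within 6000 bp. The singles with a divergent annotated gene lay between, at 2626 bp as a mean of 6 libraries, with lone singles at 2233 and pairs at 2848 bp.

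Into each gene, in contrast, the mark reached less far at pairs. In the 3000 bp downstream of a 5′ end, genes of pairs were covered for 1902, 1811 and 1079 bp in WT and 1055, 970 and 901 bp in KO. Single genes were covered for 2064, 1997 and 1337 bp in WT and 1291, 1201 and 1149 bp in KO. Every library had the shorter mark at pairs, with a difference of −220.2 bp (SD 37.6, exact sign permutation p = 0.031, adjusted 0.042). With peaks of a fold enrichment of at least 4, this difference and that in the 6 kb window kept their direction and missed the threshold (exact sign permutation, adjusted p = 0.062 for each). These values concern promoters called in all 6 lists. Over all promoters, called or not, the pairs were covered for 263 bp more, since an uncalled promoter counts as 0 bp or little and 2.67% of pairs but 31.7% of singles were called in no list.

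The peaks over pairs ranked high in the wide lists and low in the narrow ones. Each pair was given the percentile, within its list, of the fold enrichment of its strongest peak. The median percentile was 82.5 and 83.8 in WT replicates 1 and 2, above 71.7 and 72.2 for singles. It was 36.5 in WT replicate 3 and 37.9, 39.0 and 44.2 in the KO libraries, below the 57.1, 57.8, 60.3 and 63.2 of singles. The mean difference between pairs and singles, −9.77 points, was not distinguishable over the 6 libraries (higher at pairs in 2 and lower in 4, exact sign permutation p = 0.25), and the kind of list separated the directions.

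**Figure D2:**
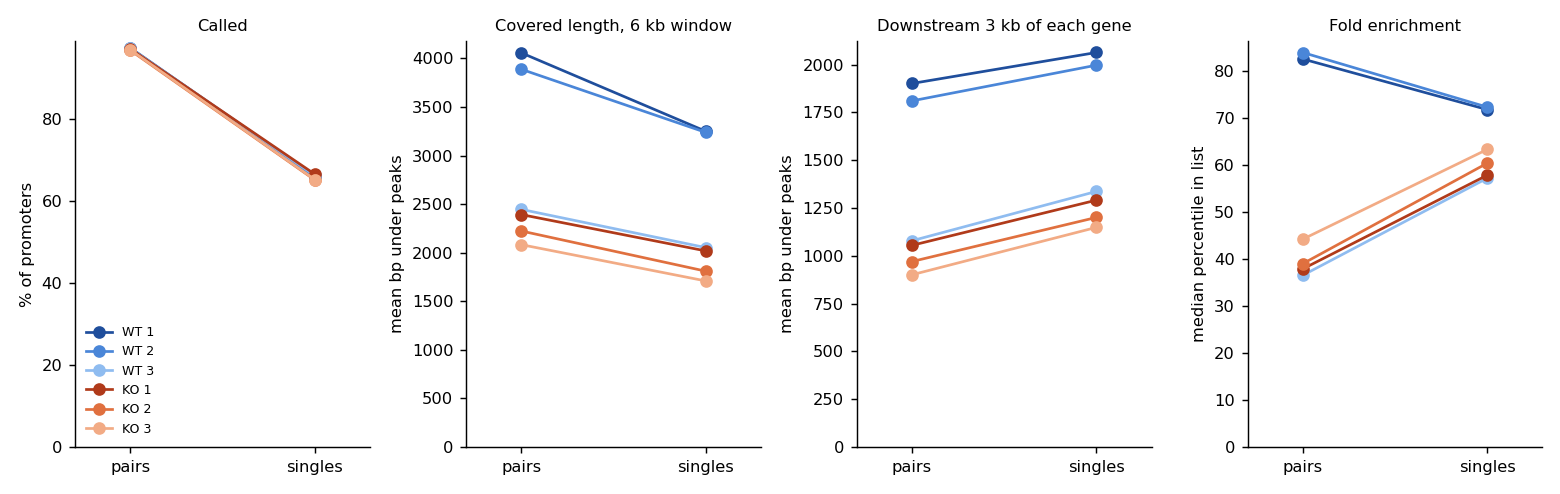
Value of each of the 6 libraries at pairs and at single promoters, for the share called (percent), the mean covered length in 6 kb (bp), the mean covered length 3 kb downstream (bp) and the median fold-enrichment percentile. Lines join a library's values, and the lines for fold enrichment fall from pairs to singles in WT replicates 1 and 2 and rise in the other libraries.

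One peak usually covered both 5′ ends. The gap between the ends ran from 18 to 1000 bp, with a median of 233 and quartiles of 124 and 401 bp. A single peak lay over both ends at 785 of the 831 pairs (94.5%) in all 6 lists, and in no list did separate peaks cover one end each (0 pairs in each of the 6). The share of called pairs with a shared peak was 98.7%, 98.8% and 96.9% in WT and 96.8%, 95.4% and 94.96% in KO. Among the pairs up to 100 bp apart the share in all 6 lists was 100% of 151, and it was 99.0%, 93.1% and 95.2% in the groups above that reaching 200, 300 and 500 bp. It was 83.0% of 141 pairs in the last group, over 500 and up to 1000 bp. In the last group the list values were 95.04% and 95.7% in the wide lists and 83.7 to 90.1% in the narrow ones.

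Covered length in the 6 kb window also went with the gap. In WT replicate 3 it was 2176 bp up to 100 bp apart and 2336, 2430, 2609 and 2718 bp in the wider groups in turn, and in KO replicate 3 it was 1795, 1984, 2110, 2241 and 2310 bp. The cover downstream of each end did not follow that order, at 1053, 1095, 1093, 1111 and 1026 bp in WT replicate 3. Called in all 6 lists were 93.8%, 96.6%, 96.7%, 99.4% and 95.9% of the pairs. At the 1000 bp limit, the 25 pairs over 900 bp apart included 23 called in all 6 lists and 18 under a shared peak throughout. The 11 divergent pairs just outside, over 1000 and up to 1100 bp, included 11 and 10 such pairs.

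**Figure D3:**
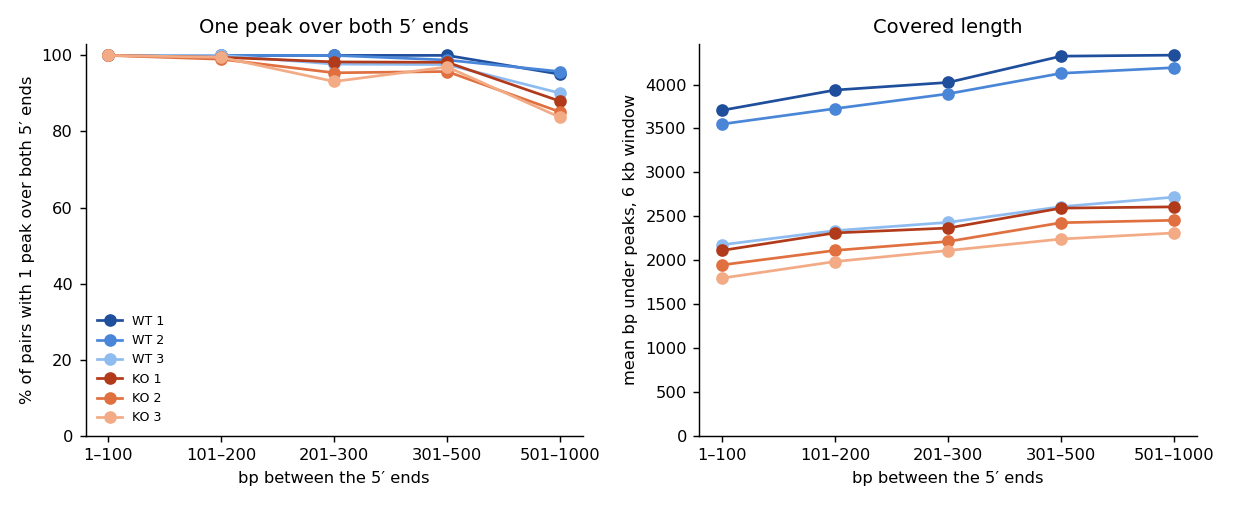
Share of pairs with 1 peak over both 5′ ends (percent) and mean covered length in the 6 kb window (bp) by gap between the 5′ ends (bp, 5 groups), for the pairs called in all 6 lists, one line per library. The share falls in every library in the last group, where it is 83.7 to 95.7%, and the covered length is lowest in the first group in every library.

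The 3 closest pairs were marked in every library, with less cover than the median pair in the narrow lists. Those medians were 2358 bp in WT replicate 3 and 2295, 2148 and 2037 bp in KO. CIR1/SCRN3, a transcriptional corepressor gene and its neighbour, lie 18 bp apart and were covered for 3205, 2998 and 1806 bp in WT and 1701, 1676 and 1557 bp in KO. The mark was nearly even, with 948 bp on the CIR1 side and 839 bp on the SCRN3 side in WT replicate 3. MRM2/NUDT1, 21 bp apart, encode a mitochondrial rRNA methyltransferase and a hydrolase that clears oxidised nucleotides, and were covered for 5256, 5220 and 1966 bp in WT and 1971, 1826 and 1789 bp in KO. HIGD2B/BBS4, 25 bp apart, reached 2238 bp in WT replicate 3, of which 697 bp lay on the HIGD2B side and 1515 bp on the side of BBS4, a subunit of the BBSome of the cilium.

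Many pairs carried more mark on one side, in all libraries alike. The same gene had the longer cover in all 6 lists at 486 of 831 pairs (58.5%), the minus-strand gene at 251 and the plus-strand gene at 235. Among the 4 narrow lists the side held at 623. In 59 pairs one side was covered for at least 2 times as many bp as the other in all 6 lists. The longer side lay in the gene with the longer annotated span in 243 of the 486 pairs, or 50%. At ZAR1L/BRCA2, a pair of an oocyte gene and the homologous recombination mediator, the BRCA2 side was covered for 1851, 1876 and 1408 bp in WT and 1405, 1236 and 1322 bp in KO. The ZAR1L side was covered for 862, 727 and 386 bp in WT and 347, 286 and 238 bp in KO, so BRCA2 was ahead in each.

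By group of known function, taken by gene symbol, the shares called in all 6 lists were near the 96.5% of all pairs, apart from the histones. RNA processing and polymerase genes had 84 pairs, DNA replication and repair 42, cytosolic translation 33, proteasome and ubiquitin 28 and chaperones 17, all called in all 6 lists. The mitochondrial ribosome and respiratory chain had 61 of 62 pairs called in all 6, zinc finger genes 32 of 33 and cell cycle genes 33 of 34. The interferon and antigen presentation group had 4 of 4 and the collagens 2 of 2. Replication-dependent histone genes, which lie in clusters of H2A and H2B pairs, were fewer, with 8 of 13 called in all 6 lists and 3 in none.

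The histone pairs also differed among themselves. H2BC21/H2AC20, like other members of the group named after their values were seen, was covered for 6184, 6057 and 4702 bp in WT and 4296, 2804 and 2574 bp in KO, while H2AC25/H2BC26, H2BC8/H2AC8 and H3C7/H2BC9 had no peak. At H2AC17/H2BC17 the cover was 2448, 2421 and 1556 bp in WT and 1420, 1194 and 1220 bp in KO, all of it on the H2BC17 side. Its peak left both 5′ ends uncovered in every library, and in KO replicate 2 it began at position 27894560 of chromosome 6 (GRCh38), with the H2BC17 5′ end at 27893425. At H2AC14/H2BC14 the H2AC14 side was at 3000, 3000 and 526 bp in WT and 527, 0 and 0 bp in KO. Histone genes have near-identical copies, and the authors removed reads that map to several places, so a missing peak at a histone pair need not mean a missing mark.

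Of the 23 pairs without a peak, several hold genes known from other tissues. The 6 with the smallest gaps, named by rule, were PARG/TIMM23B, DCST2/DCST1, FAM229A/TSSK3, TRIM50/FKBP6, FOXL2/FOXL2NB and OR11A1/OR2H1. DCST1, DCST2 and TSSK3 are known from the testis, FOXL2 from the ovary, and OR11A1 and OR2H1 are odorant receptor genes. For PARG/TIMM23B and TRIM50/FKBP6 no such tissue is named here. FOXL2/FOXL2NB had 274 and 197 bp in KO replicates 1 and 3, beyond the calling window. Others, named after their values were seen, were ABCG5/ABCG8, the sterol transporters of liver and gut, the dual oxidase pair DUOXA1/DUOX1 and SMC1B/RIBC2, which holds a meiotic cohesin gene. FAM72A/SRGAP2, FAM72B/SRGAP2C, SRGAP2B/FAM72D and BOLA2B/SLX1A lie in recently duplicated segments, where the removal of multimapping reads also applies. The 23 were less CpG-rich, with a median ratio of 0.69 and 60.9% of them CpG-rich, against 0.79 and 94.5% of the 831.

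The pairs that carried a peak were nearly the same in WT and ZBTB48 KO. The pairs called numbered 837, 834 and 836 in WT and 835, 832 and 833 in KO, a mean difference of 2.33 pairs (exact permutation over 20 assignments, two-sided p = 0.2, adjusted over 5 genotype tests 0.33, with 0.1 the smallest p that 3 against 3 allows). With peaks of a fold enrichment of at least 4 alone, a cutoff near the medians of the narrow lists only, it was 176 pairs (exact permutation p = 0.4). Of the 833 pairs called in all WT libraries, 831 (99.8%, 95% Wilson interval 99.1 to 99.9%, counting error only) were called in all KO libraries, 1 in 1 KO library and 1 in none. Over all promoters, 12111 of 12263 (98.8%) were called in all KO libraries in the same way, and the share called in 3 WT and no KO was 0.155%. From WT replicate 3 alone, 832 of 836 pairs (99.5%) were called in all KO libraries, beside 9509 of 9836 singles (96.7%). No pair was called in all KO and at most 1 WT library.

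Of the 2 exceptions among the 833, one was a small mark and the other a peak at the edge of the calling window. MST1/RNF123, the gene of a hepatocyte-made growth factor and a ubiquitin ligase gene 83 bp apart, had 360, 319 and 304 bp in WT and 0, 0 and 0 bp in KO. The WT peak of replicate 3 lay at chr3:49688752-49689055 (GRCh38), inside MST1 and short of both 5′ ends, with a fold enrichment of 4.30 and a −log10 q of 5.76. No library had cover on the RNF123 side. H2AC17/H2BC17, described above, was the other, and among the KO libraries it was called in replicate 1 alone, as the KO peaks began near the edge of the calling window.

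Mean cover per pair was higher in the WT lists, as at other promoters, without passing the test. Over the 831 pairs, from 3000 bp left to 3000 bp right, the cover was 4100, 3918 and 2449 bp in WT and 2399, 2225 and 2084 bp in KO. The means were 3489 ± 905 and 2236 ± 158 bp (SD, n = 3 each), a difference of 1253 bp (exact permutation p = 0.1, adjusted 0.25). WT replicate 3 was 213 bp above the KO mean, and the remainder of the difference lay in the wide lists. As a ratio to single promoters in the same library, pairs stood at 1.248, 1.201 and 1.192 in WT and 1.185, 1.228 and 1.218 in KO (exact permutation p = 0.9). The share under a shared peak differed by 2.41 points (exact permutation p = 0.1, adjusted 0.25) and by 1.17 points for WT replicate 3 against the KO mean.

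Pair by pair, 497 of the 840 pairs with any cover (59.2%) had every WT above every KO library, where the share over all 13361 covered promoters was 51%, and 0 had the reverse, where it was 0.105%. Without WT replicate 3 the number was 827, so the narrow WT list set it, and with peaks of a fold enrichment of at least 4 it was 196. After dividing each value by the median covered single promoter of its list (1622 to 3222 bp), a scaling chosen after the data were seen, every WT was above every KO at 27 pairs (3.21%, with 5.59% over all promoters). Every KO was then above every WT at 125 pairs (14.9%, with 12.7% over all promoters). A fixed window caps the scaled value at 1.86 and 1.89 in the wide lists and at 3.10 to 3.70 in the others. Of the 125 pairs, 3 had a window filled end to end in some library.

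Within the narrow lists, WT replicate 3 was above every KO library at 499 pairs (59.4%, with 53.9% over all promoters) and below every one at 13 (1.55%, with 2.5%). Scaled by list it was above at 148 (17.6%, with 23.1%) and below at 288 (34.3%, with 27.3%). A lead of at least 500 bp over every KO library was found at 51 pairs (6.07%), close to the 5.52% over all promoters.

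By group, the pairs with every WT above every KO numbered 27 of 42 in DNA replication and repair, 40 of 61 covered mitochondrial pairs, 21 of 33 in translation, 22 of 28 in proteasome and ubiquitin, and 50 of 84 in RNA processing. They numbered 18 of 33 zinc finger pairs, 20 of 33 covered cell cycle pairs, 8 of 17 chaperone pairs, 5 of 10 covered histone pairs, 1 of 4 interferon pairs and 1 of 2 collagen pairs, beside the 59.2% of all covered pairs. Scaled by list, it was so at 2 of 10 covered histone pairs, 2 of 84 RNA processing pairs and at most 1 pair of any other group. The share of all covered pairs was 3.21%. Scaled in the other direction, every KO was above every WT at 9 of 61 mitochondrial, 8 of 84 RNA processing and 7 of 42 DNA replication and repair pairs. It was so at 6 of 33 translation, 3 of 17 chaperone, 3 of 33 cell cycle and 1 of 28 proteasome and ubiquitin pairs. The remaining groups had 1 of 33 zinc finger, 1 of 10 histone, 1 of 4 interferon and 0 of 2 collagen pairs, beside the 14.9% of all covered pairs.

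**Figure D4:**
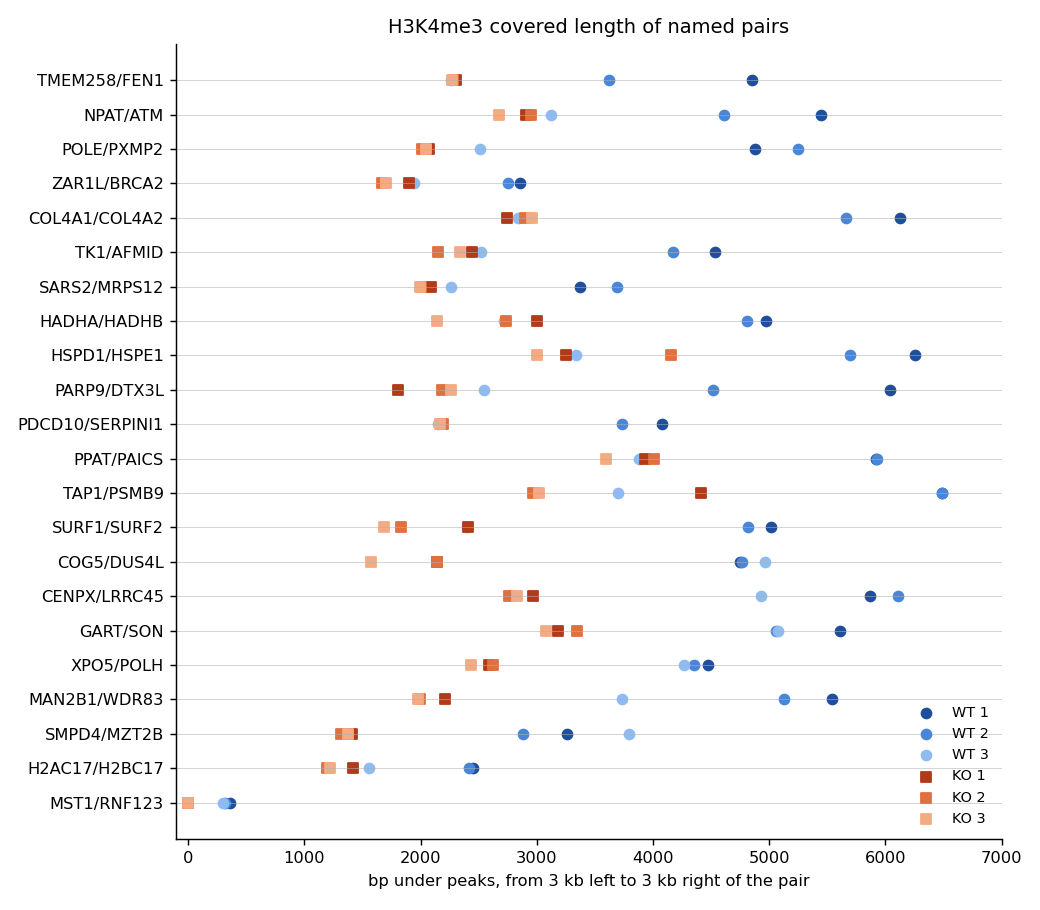
Covered length (bp, horizontal axis) of named pairs in each library, circles for WT and squares for KO. The first 14 rows are pairs of known function, followed by the 6 with the largest lead of the lowest WT over the highest KO library and the 2 called in 3 WT and at most 1 KO library. WT replicate 3 lies with WT replicates 1 and 2 at COG5/DUS4L, GART/SON and XPO5/POLH and near the KO libraries in most of those first rows.

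A small number of pairs had a WT mark that was long in all 3 WT libraries, the narrow one included. The most separated was COG5/DUS4L, a Golgi tethering subunit and a tRNA dihydrouridine synthase 51 bp apart, at 4753, 4765 and 4963 bp in WT and 2145, 2146 and 1573 bp in KO. Its groups do not overlap, the lowest WT library lying 2607 bp above the highest KO library, which is also the order that chose the pair. The COG5 side carried most of it, with 3000, 3000 and 2926 bp in WT and 902, 1196 and 774 bp in KO, while the DUS4L side had 1701, 1713 and 1985 bp in WT and 1191, 898 and 747 bp in KO. The peak was a single one in every library, at chr7:107560994-107565956 (GRCh38) in WT replicate 3 and chr7:107563018-107565162 in KO replicate 1, and its fold enrichment was 2.73 in WT replicate 3 and 3.69 to 5.07 in KO.

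At CENPX/LRRC45 the lead was on one side. The side of LRRC45, a centrosome linker gene, was covered for 3000, 3000 and 3000 bp in WT, the full window, and 999, 919 and 991 bp in KO. The side of CENPX, a histone-fold protein of the kinetochore and the Fanconi anaemia pathway, was covered for 2441, 2683 and 1505 bp in WT and 1544, 1412 and 1410 bp in KO. On that side WT replicate 3 lay among the KO libraries. The longer side therefore turned with genotype, as it did at 9 pairs in all, and in most of the other 8 by small lengths. AAMP/PNKD was the clearest of those, named after its values were seen, with 1980, 2266 and 1992 bp on the PNKD side in WT and 952, 911 and 983 bp in KO.

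GART/SON, of purine synthesis and splicing, was covered for 5606, 5057 and 5079 bp in WT and 3187, 3345 and 3076 bp in KO. XPO5/POLH, the pre-miRNA exporter and the translesion polymerase eta, was covered for 4475, 4354 and 4265 bp in WT and 2586, 2625 and 2434 bp in KO. In both pairs both sides were longer in each WT library, the POLH side for instance at 2437, 2328 and 2420 bp against 1249, 1277 and 1296 bp.

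MAN2B1/WDR83, a lysosomal mannosidase and a scaffold gene 65 bp apart, was covered for 5538, 5130 and 3736 bp in WT and 2212, 1997 and 1975 bp in KO. The lead of WT replicate 3 was on the MAN2B1 side, at 2070 bp against 546, 405 and 463 bp, while its WDR83 side of 1600 bp equalled that of KO replicate 1. SMPD4/MZT2B, a sphingomyelinase and a γ-tubulin ring component, was covered for 3257, 2884 and 3794 bp in WT and 1412, 1314 and 1373 bp in KO. The cover was 1 peak in WT replicate 3 and separate peaks in every other library, WT replicates 1 and 2 included. MZT2B has the near-identical MZT2A, so removed multimapping reads also bear on its values. For each of these 6 pairs the exact permutation p was 0.1, the smallest possible, and the pairs were picked by this contrast, so the values are descriptions.

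**Figure D5:**
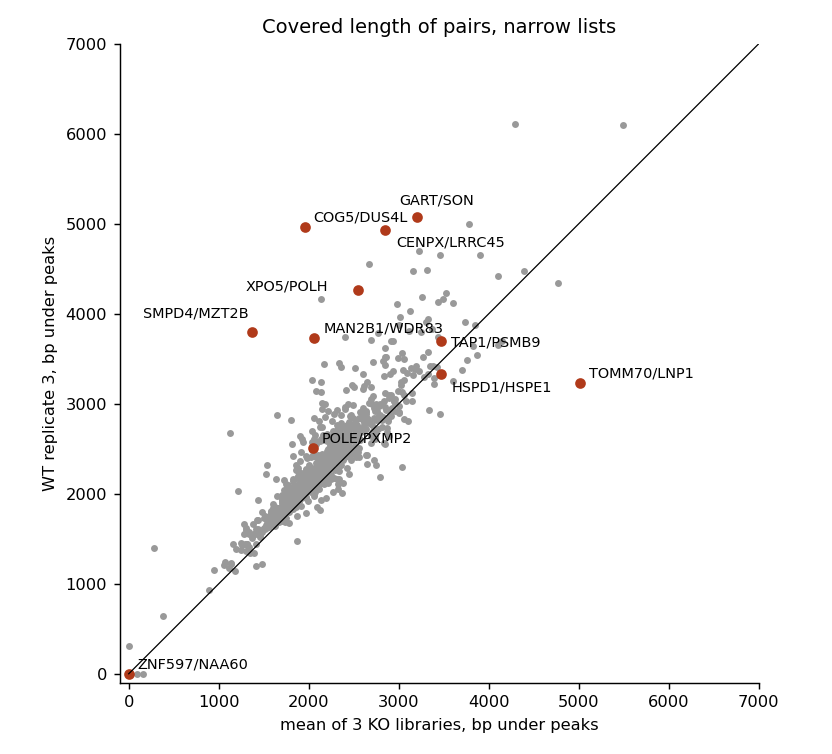
Covered length of each covered pair in WT replicate 3 (bp, vertical axis) against the mean of the 3 KO libraries (bp, horizontal axis), with the line of equality and named pairs in red. Most pairs lie slightly above the line, COG5/DUS4L and SMPD4/MZT2B lie far above it, and TOMM70/LNP1 lies below it at 3228 bp in WT replicate 3.

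Among the pairs of known function, 15 of the 18 asked for met the definition. Of these 15, 7 had every WT above every KO library, beside 59.2% of all covered pairs and 51% of all covered promoters. POLE/PXMP2, the catalytic subunit of DNA polymerase epsilon and a peroxisomal membrane protein, was covered for 4877, 5245 and 2513 bp in WT and 2069, 2016 and 2045 bp in KO. The POLE side of WT replicate 3 reached 1609 bp, beyond the 1149 to 1168 bp of the KO libraries, and its PXMP2 side of 658 bp was close to their 621 to 655 bp. NPAT/ATM, the histone gene coactivator and the DNA damage kinase, was covered for 5450, 4608 and 3125 bp in WT and 2910, 2949 and 2678 bp in KO. SARS2/MRPS12, both of mitochondrial translation, was covered for 3375, 3692 and 2266 bp in WT and 2092, 2001 and 1999 bp in KO. In both, the WT and KO values did not overlap, by 176 and 174 bp.

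The 4 interferon pairs were called in every library of both genotypes, with differing cover. TAP1/PSMB9, the antigen peptide transporter and an immunoproteasome subunit, was covered for 6489, 6489 and 3697 bp in WT and 4412, 2967 and 3019 bp in KO, so KO replicate 1 lay above WT replicate 3. In the wide lists the peak ran for 16927 and 15785 bp, far past the window. The PSMB9 side was covered for 3000, 3000 and 1610 bp in WT and 923, 963 and 947 bp in KO, with no overlap, while the TAP1 side of KO replicate 1 filled its 3000 bp. PARP9/DTX3L, an ADP-ribosyltransferase and its ubiquitin ligase partner, was covered for 6039, 4516 and 2549 bp in WT and 1806, 2184 and 2258 bp in KO. PATL2/B2M and IRF3/BCL2L12 were the remaining members of the group. PATL2/B2M, which holds the light chain of MHC class I, was covered for 4519, 4521 and 2566 bp in WT and 2792, 2900 and 2834 bp in KO. IRF3/BCL2L12, with an interferon regulatory factor, was covered for 4915, 5087 and 2704 bp in WT and 2767, 2588 and 2802 bp in KO. In these last pairs WT replicate 3 was below or among the KO libraries.

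At other known pairs WT replicate 3 lay within the KO range or close to it. COL4A1/COL4A2, the basement membrane collagens, was covered for 6128, 5663 and 2842 bp in WT and 2741, 2895 and 2957 bp in KO. HSPD1/HSPE1, the mitochondrial chaperonin and its co-chaperonin, was covered for 6257, 5696 and 3335 bp in WT and 3252, 4158 and 2999 bp in KO. HADHA/HADHB, the subunits of the mitochondrial trifunctional protein, was covered for 4972, 4813 and 2719 bp in WT and 3005, 2733 and 2142 bp in KO. PPAT/PAICS, enzymes of purine synthesis, had 3878 bp in WT replicate 3 and 3597 to 4012 bp in KO. TMEM258/FEN1, with the flap endonuclease, had 2260 bp in WT replicate 3 and 2274 to 2309 bp in KO, and PDCD10/SERPINI1 had 2147 bp and 2167 to 2192 bp. SURF1/SURF2, with a cytochrome oxidase assembly factor, had 2396 bp and 1688 to 2408 bp. TK1/AFMID, with thymidine kinase, had 2519 bp and 2154 to 2447 bp, a small gap in favour of WT.

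By mean WT cover within the window, HNRNPA2B1/CBX3, IFT140/CRAMP1 and CBX5/HNRNPA1 ranked highest. The window caps this measure and widens with the gap, and peaks could run past it, as at TAP1/PSMB9 in the wide lists. HNRNPA2B1/CBX3, an RNA-binding protein and a heterochromatin protein, filled its window of 7000 bp in WT replicates 1 and 2, with 6104 bp in WT replicate 3 and 5934, 6119 and 4420 bp in KO. IFT140/CRAMP1 was at 6090, 6130 and 6109 bp in WT and 5783, 3736 and 3361 bp in KO, and CBX5/HNRNPA1 at 6605, 6032 and 4658 bp in WT and 3547, 4270 and 3880 bp in KO. WT and KO overlapped at the first of these alone.

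A few pairs, named after their values were seen, went another way. TOMM70/LNP1, with the mitochondrial import receptor, was covered for 5790, 5398 and 3228 bp in WT and 6451, 4592 and 4002 bp in KO, and KO replicate 1 filled the window. H2BC12/H2AC12 was covered for 4901, 4708 and 2296 bp in WT and 3173, 3092 and 2852 bp in KO, so that WT replicate 3 was the lowest. ZNF597/NAA60, with the imprinted zinc finger gene ZNF597, was covered for 2510 and 2541 bp in WT replicates 1 and 2 and 0 bp in WT replicate 3 and all KO libraries. At that pair cover was found in the wide lists only, and the narrow WT list was like the KO lists. The cause was not tested.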

How the data were processed

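H3K4me3 ChIP-seq peak lists of 3 WT and 3 ZBTB48 KO U2OS clones were used. Per the labels and the methods, the authors used Trimmomatic for adapters and Bowtie2 2.3.5.1 for alignment to GRCh38, kept uniquely mapped reads without duplicates, and ran MACS2 2.1.1.2 in broad mode on each library (q of 0.05). The deposited files give, per peak, a display score, a fold enrichment (a ratio), and −log10 p and −log10 q. The authors' inputs had no list, and which control each call used is not given in the sources used here. Peaks of separate libraries were never pooled.

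Pairs and single promoters were built from GENCODE 44 on GRCh38, and peak positions lie within that build's chromosomes. From the lists, calls (at least 1 bp in the window) and bp under peaks were computed with Python 3.11.15, numpy 2.4.6 and pandas 2.3.3, tested on simulated lists. Class differences were tested by exact sign permutation over 6 libraries (4 tests) and genotype by exact permutation over 20 assignments (5 tests), with Benjamini-Hochberg adjustment within each family and a threshold of 0.05. Replicates are separate clones of 1 line. The lists carry no read counts and the methods give depth only as a range over samples, so depth did not enter the tests and precision rests on the number of libraries. The alternatives were other peak thresholds, windows, gaps, promoter classes, list scaling, each library left out, a replicate block and WT replicate 3 alone.

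Named pairs were a list of 18 known pairs, the 6 largest leads of WT over KO and of the reverse up to 4 (0 found), pairs called in all of one genotype and at most 1 library of the other, up to 6 uncalled pairs by gap, the 3 smallest gaps and the 3 largest mean WT covers within the window. Members, lists and groups were chosen with earlier results of these data known. Pairs on chromosome 8 (26) were counted but not named. All sequences are from GRCh38. One marker gene and one of the known pairs, which stays in the counts, are not reported here.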

Additional observations from a re-analysis of the deposited data

How the results depend on the processing

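Leaving out a library kept the direction of each class result (31.1 to 31.3 points called, −231 to −210.4 bp downstream, 442 to 530.1 bp covered), but 5 libraries cannot reach a p below 0.0625, and neither can the 4 narrow lists alone (31.2 points, −240.1 bp, 392 bp). With fold enrichment of at least 4, a cutoff near the medians of the narrow lists only, these were 12.8 points, −256 bp and 288 bp. All were past the threshold no longer. The genotype differences turned to −0.010 in the ratio to singles and 13.7 points in the presence gap. Over all promoters the downstream difference turned to 263 bp. The ratio to singles also turned with CpG-rich promoters (−0.0019), lone singles (−0.00072) and WT replicate 3 alone (−0.019), and ran from −0.015 to 0.014 with libraries left out. The presence gap turned with CpG-rich promoters (0.061) and ran from −0.50 to 0.045. With fold enrichment of at least 4, 95.5% of WT pairs were kept in KO, 70.1% of pairs had one side longer, and 196 pairs had every WT above every KO. With libraries left out these were 99.5 to 99.8%, 60.8 to 64.6% and 497 to 827, and scaling by list, added after seeing the data, gave 27. In WT replicate 3 against KO the difference turned at TMEM258/FEN1 (−28.7 bp), COL4A1/COL4A2 (−22.3 bp), HSPD1/HSPE1 (−135 bp), PDCD10/SERPINI1 (−31 bp) and H2BC12/H2AC12 (−743 bp), and at TOMM70/LNP1 the WT minus KO difference ran from −716 to 579 bp with libraries left out, positive without KO replicate 1 (508 bp) or WT replicate 3. The replicate block left the covered difference at 1253 bp (exact permutation p = 0.25, the smallest possible) and changed no call. Same-numbered libraries correlated at 0.019, −0.16 and 0.090 across pairs, and differently numbered ones at −0.15 to 0.17. With 3 libraries per genotype these values cannot decide whether the numbers pair the libraries. The causes were not tested.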
